A study of Mus musculus with 12 samples.

Results

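The nuclear factor I (NFI) family is a group of transcription factors encoded in the mouse by 4 genes, Nfia, Nfib, Nfic and Nfix. The peaks described here are the rows whose assigned gene name is one of these symbols in 6 lists of H4K8ac peaks (acetylated lysine 8 of histone H4). That choice took 353 of 269580 peaks and 4 of the 23433 genes that the lists name. NFI proteins bind DNA as dimers at a palindrome of TTGGC and GCCAA, and bind either arm alone more weakly. In the developing nervous system NFIA and NFIB are known for the onset of gliogenesis and, with SOX9, for astrocyte genes. In the oligodendrocyte lineage NFIA and SOX10 are known to oppose each other. H4K8ac is a mark of open, transcribed chromatin that is laid down by histone acetyltransferases at promoters and enhancers.

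Chromatin immunoprecipitation and sequencing (ChIP-seq) was done on oligodendrocyte progenitor cells (OPCs) sorted from the forebrain of PdgfrαH2BEGFP mice, which carry a nuclear green fluorescent protein under the control of Pdgfra, the platelet-derived growth factor receptor gene of OPCs. All groups share this genotype. Neonatal cells came from postnatal day 5 and adult cells from postnatal day 60, with 3 H4K8ac libraries at each age (biological replicates 1 to 3); the 6 input libraries were not analysed here. The comparison between the ages asks which chromatin carries the mark in neonatal and in adult OPCs.

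Lists differed in length before any gene was considered. The neonatal lists held 9097, 31189 and 7353 peaks over 2.98, 13.7 and 2.33 Mb, and the adult lists 72278 to 77002 peaks over 41.9 to 60.9 Mb. Neonatal replicate 2 stood apart from the other neonatal libraries, so the ratios of means are given with and without it. The lists give no read totals, so depth is unknown, and no interval for counting error could be given. With 3 libraries against 3 the exact two-sided permutation test cannot give a p below 0.1. A gene is therefore counted as higher at one age where every library of that age lies above every library of the other, beside the percentage of all genes that do the same. OPC markers had a promoter peak for 7 or 8 of 8 genes in each of the 6 libraries. Oligodendrocyte markers (Mbp, Mog, Mag and others) had one for 1, 2 and 1 of 7 at the neonatal age and for 7 of 7 in each adult library. Of 8 genes each, astrocyte markers had one for 3, 6 and 1 neonatal and 4, 2 and 5 adult (Aqp4 in no library), and neuronal markers for 0, 5 and 1 against 5, 3 and 3 (Snap25 and Stmn2 in none). Microglial markers had one for 0 of 8 in each neonatal and 1 of 8 in each adult library (P2ry12, Csf1r, Tmem119, Aif1, Itgam, C1qa and Trem2 in none). Endothelial markers had 0, 1 and 0 against 3, 2 and 2, with Cldn5, Cdh5, Flt1, Tek and Tie1 in none. Fibroblast and pericyte markers had 1, 4 and 1 against 2, 3 and 2, with Dcn, Lum, Rgs5 and Kcnj8 in none. Cspg4 was counted both as an OPC marker and in this last list. In neonatal replicates 1 and 2 all 8 OPC markers had a promoter peak, so Cspg4 was among the fibroblast and pericyte markers counted there. The part of these cell types in the results below was not tested. The cells were analysed in bulk, so more cells that carry the mark and more mark per cell cannot be told apart.

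The 4 genes differ widely in length. In the GRCm38.p6 annotation of RefSeq, Nfia (ENSMUSG00000028565.18) spans chr4:97578066-98118876 on the plus strand, 540.8 kb. Nfib (ENSMUSG00000008575.17) lies on the minus strand of the same chromosome at chr4:82290173-82506751, 216.6 kb. Nfic (ENSMUSG00000055053.18), known for its need in tooth root formation, spans chr10:81396191-81431919 on the minus strand, 35.7 kb. Nfix (ENSMUSG00000001911.16), known for the timing of differentiation of neural progenitors, spans chr8:84704712-84801238 on the minus strand, 96.5 kb.

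Promoter sequence is shown for RefSeq starts at which the bases under H4K8ac peaks differed between libraries of the ages, so that the letters can be read beside the coverage given next. Each is the 250 bases upstream of a start, 5′ to 3′ along the gene's strand, from RefSeq in build GRCm38.p6. Capitals mark the single arm of the NFI motif, TTGGC, on either strand (GCCAA on the other). No window of this table was matched for Nfib.
Nfia, chr4:97581693-97581942, plus strand: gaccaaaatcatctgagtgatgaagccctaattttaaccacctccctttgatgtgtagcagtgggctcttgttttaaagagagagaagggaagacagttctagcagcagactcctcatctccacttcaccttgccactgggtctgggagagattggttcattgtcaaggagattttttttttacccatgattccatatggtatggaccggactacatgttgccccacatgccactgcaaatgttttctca
Nfic, chr10:81427174-81427423, minus strand: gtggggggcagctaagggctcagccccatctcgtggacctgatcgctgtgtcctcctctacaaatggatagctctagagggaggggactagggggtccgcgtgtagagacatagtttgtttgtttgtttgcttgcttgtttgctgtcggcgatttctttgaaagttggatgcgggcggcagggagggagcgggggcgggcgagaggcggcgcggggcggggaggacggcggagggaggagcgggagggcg
Nfix, chr8:84772876-84773125, minus strand: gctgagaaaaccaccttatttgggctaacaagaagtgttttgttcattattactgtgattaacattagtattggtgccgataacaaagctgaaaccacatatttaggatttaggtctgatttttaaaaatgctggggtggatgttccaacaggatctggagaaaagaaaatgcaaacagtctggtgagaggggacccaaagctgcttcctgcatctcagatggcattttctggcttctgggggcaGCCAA
Nfix, chr8:84775829-84776078, minus strand: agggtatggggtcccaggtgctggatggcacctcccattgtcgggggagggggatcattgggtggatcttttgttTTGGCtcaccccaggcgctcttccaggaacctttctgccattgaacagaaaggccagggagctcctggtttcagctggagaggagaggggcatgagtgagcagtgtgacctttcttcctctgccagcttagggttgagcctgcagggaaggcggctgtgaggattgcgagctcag
Nfix, chr8:84780083-84780332, minus strand: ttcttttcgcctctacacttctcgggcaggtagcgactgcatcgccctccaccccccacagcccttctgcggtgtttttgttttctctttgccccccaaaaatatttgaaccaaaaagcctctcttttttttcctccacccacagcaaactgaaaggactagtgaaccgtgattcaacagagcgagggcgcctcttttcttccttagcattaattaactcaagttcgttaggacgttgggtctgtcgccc

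The Nfic window, with 63.2% G and C and 19 CG dinucleotides, held no peak base in the neonatal libraries and 250, 83 and 250 bases in adult replicates 1, 2 and 3. Beside this window, neonatal replicate 2 held 1189 bp of peaks within chr10:81424827-81427672. The first Nfix window, with 42% G and C and 1 CG dinucleotide, was covered over all of its 250 bases in each adult library and over none in the neonatal ones. The second Nfix window was covered in neonatal replicate 2 and in each adult library, over 250 bases each. The last Nfix window held 188, 111 and 0 covered bases in neonatal replicates 1, 2 and 3, and 250 in each adult library. A further Nfix window between the first and the second, chr8:84773411-84773660, is not printed; it held 137 covered bases in neonatal replicate 2, none in the other neonatal libraries and 250 in each adult library. The Nfia window went the other way, with 246 covered bases in neonatal replicate 2 and none in the other 5 libraries, and that peak was assigned to E130114P18Rik, a noncoding transcript. So these adult-marked windows ranged from CG-rich to CG-poor, where the median of 32851 RefSeq windows of the same length was 52.4% G and C and 6 CG dinucleotides. The single arm stood in 1 place in each of the first and second Nfix windows and in no place of the Nfia, Nfic and last Nfix windows. Of all windows, 41.5% held the single arm, and 12 (0.0365%) held the full palindrome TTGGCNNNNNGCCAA, none of them shown here. The GC box GGGCGG, searched on both strands, stood in 3 places in the Nfic window and in 32.7% of all windows. A match is a description of the letters and not a binding site.

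Each of the 4 genes had more bases under H4K8ac peaks in every adult library than in any neonatal library. Nfix was the most covered. It held 1.55, 9.61 and 1.497 kb in neonatal replicates 1 to 3, and 38.7, 40.7 and 48.5 kb in adult replicates 1 to 3. Nfia held 0.187, 2.80 and 0.442 kb in the neonatal libraries and 21.0, 21.7 and 34.7 kb in the adult ones. These are long stretches beside the median gene, which had a neonatal mean of 0.141 kb and an adult mean of 0.889 kb. Nfib held 1.27, 3.27 and 0.989 kb in the neonatal libraries and 7.76, 7.94 and 12.1 kb in the adult ones. Nfic held 0.967, 4.17 and 0.760 kb in the neonatal libraries and 8.46, 7.25 and 11.3 kb in the adult ones. Within each age neonatal replicate 2 was the highest neonatal library for every member, and adult replicate 3 the highest adult one.

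Adult means were 42.6 ± 5.18 kb for Nfix, 25.8 ± 7.72 kb for Nfia, 9.26 ± 2.45 kb for Nfib and 8.99 ± 2.06 kb for Nfic (SD, n = 3). Nfix ranked 32 and Nfia 163 of 23433 genes by adult mean, ahead of Nfib at 1046 and Nfic at 1086. The adult values of Nfib and Nfic overlapped, so these neighbours did not differ beyond their spread. The neonatal means were 4.22 ± 4.67 kb for Nfix, 1.97 ± 1.91 kb for Nfic, 1.84 ± 1.24 kb for Nfib and 1.14 ± 1.44 kb for Nfia (SD, n = 3), and all 4 ranges overlapped. The adult mean was 22.5 times the neonatal mean for Nfia, 10.1 times for Nfix, 5.03 times for Nfib and 4.57 times for Nfic. Over all genes with any neonatal peak the median ratio was 3.73. Without neonatal replicate 2 the ratios were 82.0, 28.0, 8.20 and 10.4 in the same order. For every member the exact permutation p was 0.1, the smallest possible, and 0.166 adjusted (Benjamini-Hochberg) over 23433 genes. The separation itself was common, since 60.0% of all genes had every adult library above every neonatal one, and 4 of 4 is read against that. The percentage was 70.6 without neonatal replicate 2. Leaving out a library cannot undo a separation, so the 4 members stayed separated of necessity.

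**Figure D1:**
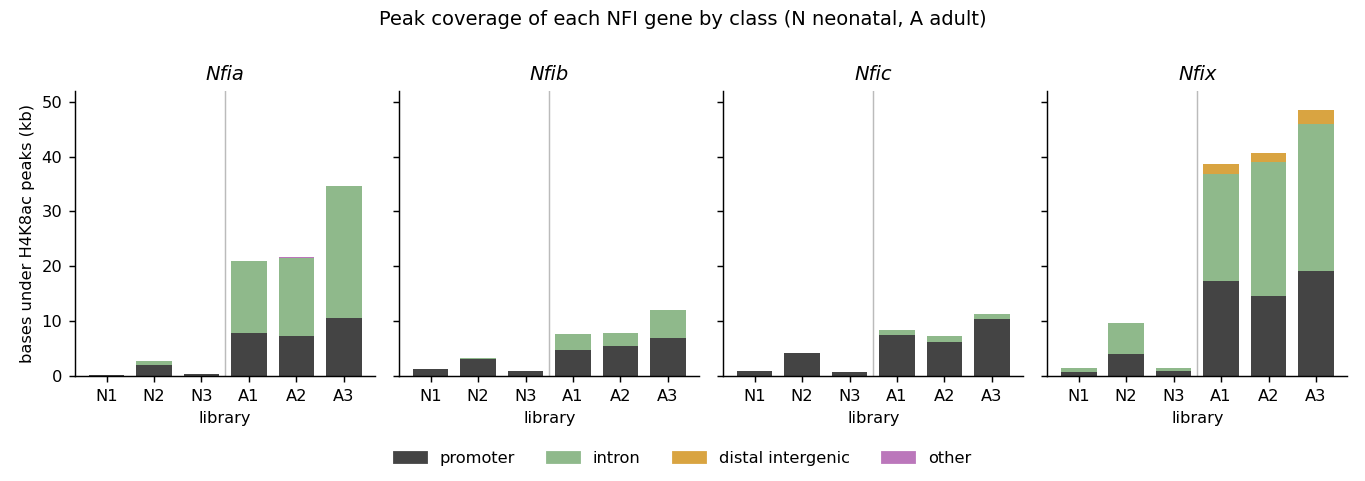
Bars give the bases under H4K8ac peaks (kb, vertical axis) assigned to each NFI gene in each of the 6 libraries (horizontal axis; N1 to N3 neonatal, A1 to A3 adult), stacked by peak class. Every adult bar is taller than every neonatal bar of its gene. Among the peaks assigned to each gene by name, Nfic is almost all promoter while Nfia and Nfix hold large intronic parts.

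A peak was promoter where the authors' annotation placed it within 3000 bp of a start. Promoter bases separated the ages for all 4 members, though with peaks within 1000 bp merged the calls of Nfib and Nfix were lost (differences of 4.25 and 2.01 kb in place of 3.97 and 15.1 kb). Nfix had 0.708, 3.97 and 0.976 kb of promoter peaks in the neonatal libraries against 17.3, 14.6 and 19.2 kb in the adult ones. Nfia had 0.187, 2.05 and 0.442 kb against 7.88, 7.35 and 10.6 kb. Nfic had 0.967, 4.17 and 0.760 kb against 7.41, 6.19 and 10.3 kb. Nfib was nearest to overlap, with 1.27, 3.08 and 0.989 kb against 4.83, 5.45 and 6.95 kb. Here too the background was high, with 60.1% of 18548 genes separated in this direction. The ratios of means were 9.03 for Nfix, 9.63 for Nfia, 4.06 for Nfic and 3.23 for Nfib, and 20.2, 27.4, 9.23 and 5.09 without neonatal replicate 2. The number of promoter peaks told less. It separated the ages for Nfia, with 1, 3 and 1 neonatal and 7, 9 and 12 adult peaks. For the other members it overlapped, with 2, 5 and 4 against 4, 8 and 6 for Nfib, 3, 8 and 1 against 8, 8 and 10 for Nfic, and 1, 7 and 2 against 11, 6 and 9 for Nfix. The exact permutation p for these counts was 0.3, 0.3 and 0.2, and 24.7% of genes were separated by this count. The counts of Nfic and Nfix were separated as well without neonatal replicate 2.

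Wider peaks were measured directly. The widest promoter peak of Nfix was 708, 1202 and 605 bp in the neonatal libraries and 10692, 8232 and 14442 bp in the adult ones, a ratio of means of 13.3. Nfib reached 1001, 1375 and 305 bp in the neonatal libraries and 3885, 3382 and 4152 bp in the adult ones, a ratio of 4.26. For Nfia the widths were 187, 1735 and 442 bp against 2429, 2049 and 2694 bp, a ratio of 3.03. For Nfic they were 628, 1547 and 760 bp against 2232, 2319 and 2718 bp, a ratio of 2.48. All 4 members were separated, as were 58.0% of 18548 genes, whose median ratio was 3.13 where a neonatal promoter peak existed. Nfix had the ratio furthest above that median, but its neonatal and adult widths came from different regions. The neonatal ones lay in chr8:84797987-84801021, where the adult peaks were 2833, 2774 and 2752 bp. The adult ones lay in chr8:84762383-84776860, where the widest neonatal peaks were 0, 1126 and 371 bp. Without neonatal replicate 2 the ratios were 16.9 for Nfix, 5.83 for Nfib, 7.60 for Nfia and 3.49 for Nfic. At the leading Nfia promoter region wider neonatal peaks carried the name E130114P18Rik. With peaks of any name the widths there were 651, 1735 and 701 bp in the neonatal libraries, and the Nfia ratio was 2.32, or 3.54 without neonatal replicate 2.

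**Figure D2:**
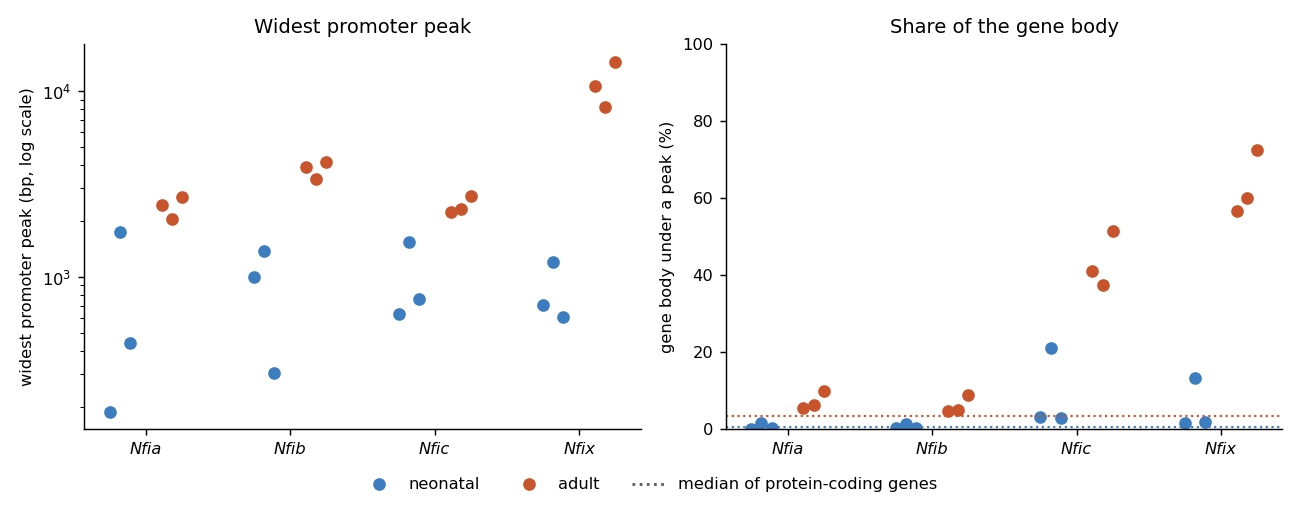
Points are single libraries (blue neonatal, orange adult) for each NFI gene, with the width of the widest promoter peak in bp on a log axis at left and the percentage of the gene body under a peak at right, where dotted lines mark the medians of protein-coding genes at each age. Adult points lie above neonatal points for all 4 genes, and the Nfix points from 8232 to 14442 bp and from 56.7% to 72.6% are the highest.

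The intronic peaks named for the members were nearly all adult. Nfia had no intronic peak in neonatal replicates 1 and 3 and 3 in replicate 2 (0.751 kb), against 29, 30 and 39 adult peaks over 13.1, 14.1 and 24.1 kb. Nfib had none, 1 and none in the neonatal libraries, the 1 covering 0.192 kb, and 9 in each adult library over 2.92, 2.49 and 5.14 kb. Nfic had none in the neonatal libraries and 2 in each adult library, over 1.06, 1.06 and 0.947 kb. Nfix was the one member with intronic peaks under its own name in every neonatal library. There were 2, 9 and 2 of them over 0.842, 5.64 and 0.521 kb, against 23, 22 and 10 over 19.5, 24.5 and 26.7 kb. Adult replicate 3 thus had the fewest intronic Nfix peaks and the most intronic Nfix bases of the adult libraries. The Nfix ratio of intronic means was 10.1, and 34.6 without neonatal replicate 2. Without it the neonatal libraries held no intronic base named for the other 3 members. Peaks inside a member but named for another gene are not in these counts. In neonatal replicates 1 and 3, those named Gm12676 held 0.422 and 0.501 kb inside Nfia. Those named Mir1191b held 0.202 and 0.163 kb inside Nfic. Intronic bases separated the ages for all 4 members and for 49.6% of the 7499 genes with any intronic peak. Distal intergenic peaks were assigned to Nfix alone, 3, 6 and 4 in the adult libraries (1.83, 1.63 and 2.53 kb) and none in the neonatal ones. Of 6187 genes with a distal peak, 47.1% were separated in this direction. One peak remained outside these classes, an exonic Nfia peak of 167 bp in adult replicate 2.

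By gene name, the class make-up differed among the members. Promoter bases made up 100, 73.2 and 100% of the bases of Nfia in the neonatal libraries and 37.5, 33.9 and 30.6% in the adult ones. Nfib went from 100, 94.1 and 100% to 62.3, 68.7 and 57.5%. Nfic, the shortest gene, stayed at 85.4 to 91.6% in the adult libraries after 100% in each neonatal one. This leaves out peaks inside Nfic that were named Mir1191b, 7.804, 7.87 and 9.006 kb in the adult libraries. Those named Nfic held 5.97, 5.13 and 8.003 kb there. In the neonatal libraries Mir1191b peaks held less, 0.202, 2.952 and 0.163 kb against 0.628, 3.278 and 0.76 kb. The promoter percentage of Nfic by these classes with peaks of any name was not tested. Nfix did not separate by this measure, with 45.7, 41.3 and 65.2% in the neonatal and 44.8, 35.8 and 39.6% in the adult libraries. Over all genes they were 86.9, 74.6 and 90.3% in the neonatal and 52.4, 50.02 and 48.4 in the adult libraries.

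Long gene bodies can hold other annotated genes, and the lists give each peak to 1 gene only. Within the body of Nfia 89 peaks were named E130114P18Rik, 19 Gm12676 and 4 Gm12691, beside 135 named Nfia. In Nfib 39 peaks were named n-R5s188, in Nfic 18 were named Mir1191b and 9 Gm16104, and in Nfix 51 were named G430095P16Rik. Counted by position whatever the name, Nfia held 1.26, 8.56 and 1.64 kb in the neonatal libraries and 30.4, 33.9 and 54.5 kb in the adult ones. Its ratio of means was then 10.4 in place of 22.5. In neonatal replicate 1, for example, 0.187 kb of the body was named Nfia, 0.651 kb E130114P18Rik and 0.422 kb Gm12676. The ratio was 8.30 for Nfib, 4.74 for Nfic and 11.1 for Nfix. These ratios were 27.3 for Nfia, 14.6 for Nfib, 13.8 for Nfic and 33.7 for Nfix without neonatal replicate 2.

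By position, H4K8ac covered most of Nfix in adult cells, with 56.7, 59.9 and 72.6% of the body against 1.77, 13.3 and 1.97% in neonatal cells. Its adult mean of 63.1% lay at percentile 98.3 of 14272 protein-coding genes, whose medians were 3.63% in adult and 0.740% in neonatal cells. Nfic was covered over 41.1, 37.6 and 51.5% in adult and 3.24, 21.2 and 3.04% in neonatal cells. Nfia was covered over 5.62, 6.27 and 10.1% against 0.233, 1.58 and 0.304%. Nfib was covered over 4.86, 4.93 and 8.93% against 0.466, 1.40 and 0.389%. The 2 longest members were thus the 2 least covered by share of their bodies. All 4 were separated, as were 68.8% of these 14272 genes and 70.0% of the 4332 of at least 50 kb.

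**Figure D3:**
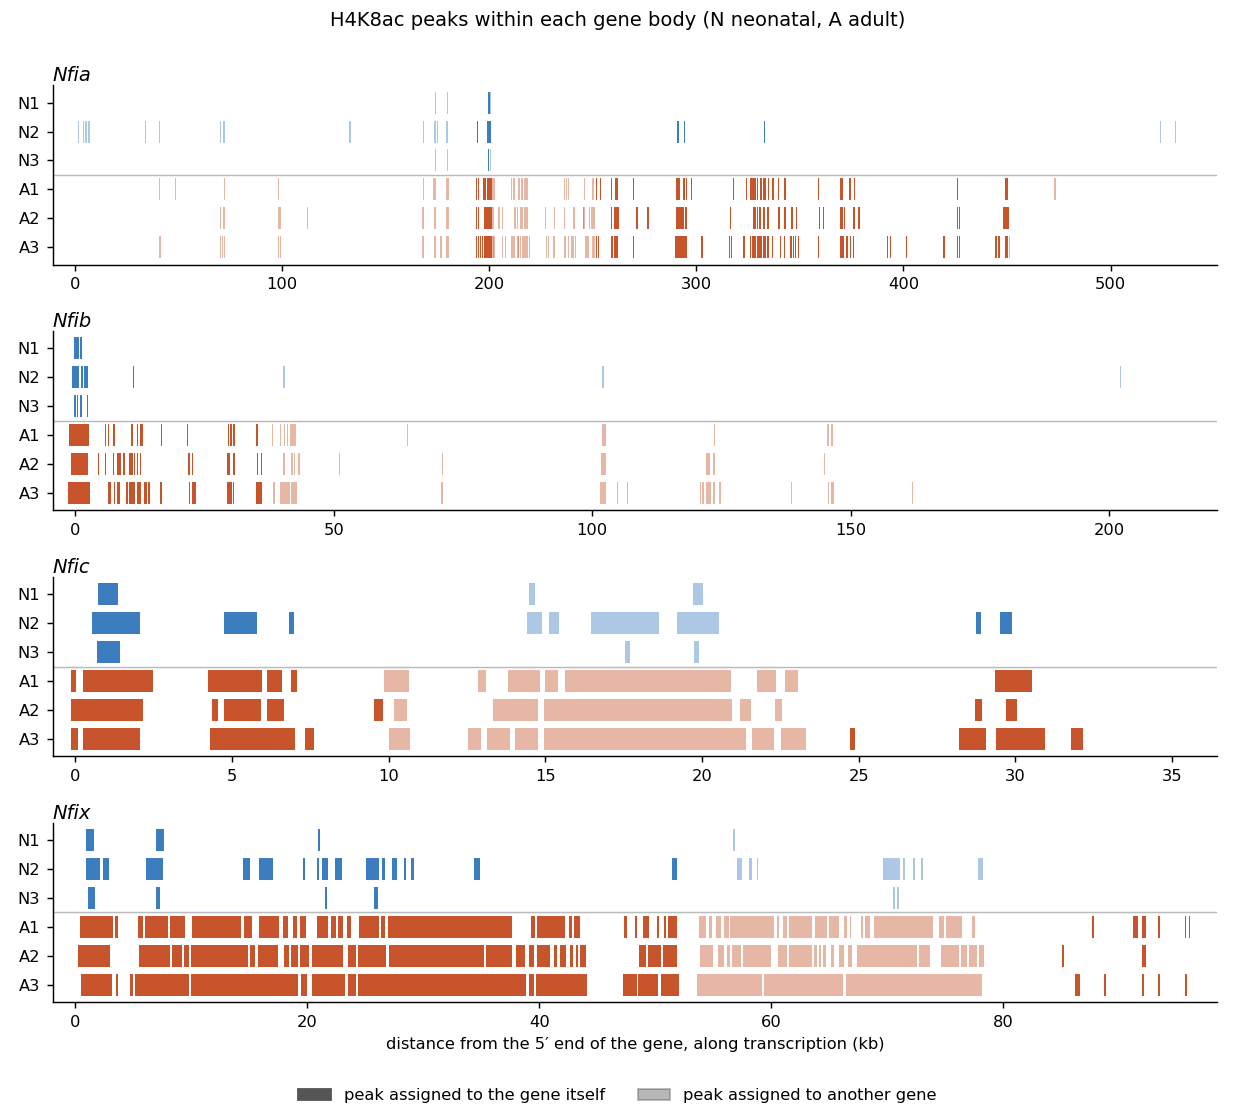
Each row is 1 library (N1 to N3 neonatal, A1 to A3 adult) and each bar a peak within the body of the gene, placed by its distance in kb from the annotated 5′ end along transcription; pale bars are peaks that the lists assign to another gene. Neonatal replicates 1 and 3 have 4 peaks each in Nfia, replicate 2 has 21 spread along the gene, and adult peaks cover 56.7 to 72.6% of Nfix.

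Merging the overlapping peaks of the 6 libraries gave 120 regions with a peak of a member, 62 for Nfia, 26 for Nfix, 21 for Nfib and 11 for Nfic. Of these, 28 were present in all 3 adult and no neonatal library, and 70 in 1 or 2 adult libraries only. Both ages shared 20 regions, and in 12 of the 20 the neonatal peak came from replicate 2 alone. In all 6 libraries 6 regions were present, 3 of them in Nfix and 1 in each other member. No region was present in all 3 neonatal and no adult library. The 2 regions without an adult peak, chr4:82704098-82704342 and chr4:82704580-82704751, were Nfib promoter peaks of neonatal replicate 2. Over all 98027 regions 4.74% were in all 6 libraries, 20.4% in all 3 adult and no neonatal library, and 5.62% in no adult library. Both ages shared 20.7% of all regions, against 20 of the 120 here.

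The leading promoter region of a member was the one with most bases summed over the 6 libraries, a choice that the adult libraries largely set. It was marked in all 3 neonatal libraries in every member except Nfix, which had another promoter region marked in all 6 libraries, given below. At Nfia, chr4:97776516-97779236 held 838, 1735 and 1143 bp of peaks in the neonatal libraries and 2429, 2521 and 2694 bp in the adult ones. Part of its neonatal bases carried the name E130114P18Rik. At Nfib, chr4:82503969-82508120 held 1269, 2868 and 989 bp against 3885, 3637 and 4152 bp. At Nfic, chr10:81429432-81432061 held 628, 1547 and 760 bp against 2379, 2319 and 2017 bp. In these 3 regions the groups did not overlap, as in 76.3% of the 4339 regions that were present in all 6 libraries and held a promoter peak.

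In Nfix the leading region was chr8:84762383-84776860, 14.5 kb long. It held 0, 2750 and 371 bp in neonatal replicates 1, 2 and 3 and 12832, 13632 and 14442 bp in the adult libraries, so that adult peaks filled most of it. The first and second Nfix windows printed above lie in this region. Another promoter region, chr8:84797987-84801021, lay just inside the 5′ end of the RefSeq gene. It held 708, 1726 and 605 bp in the neonatal and 2833, 2774 and 2752 bp in the adult libraries (this region, and the 9.2 kb one that follows, were chosen after their values were seen). Between them, chr8:84782007-84791237 held 1750 bp in neonatal replicate 2, none in the other neonatal libraries and 7492, 8030 and 9221 bp in the adult ones. So in adult cells the mark ran, with gaps, from near the 5′ end into the gene, while in neonatal replicates 1 and 3 it was a set of short peaks.

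By the rule of presence in most libraries, the intronic regions of Nfix were chr8:84791403-84796099 and chr8:84777967-84780805, both in intron 1 of 8 and both in all 6 libraries. The first held 654, 1486 and 352 bp in the neonatal and 3718, 4024 and 4692 bp in the adult libraries. The second, which holds the last Nfix window, had 188, 1214 and 169 bp against 1865, 2595 and 2839 bp. In Nfia the intronic regions were chr4:97868131-97870878 and chr4:97871083-97873495, in intron 2 of 3 of the annotated transcript. They had 541 and 210 bp in neonatal replicate 2, none in the other neonatal libraries, and 1618 to 2734 bp in the adult ones. In Nfib, chr4:82476451-82477369 and chr4:82493646-82494785, in intron 2 of 11, were marked only in adult libraries, over 353 to 853 bp. The Nfic regions, chr10:81422099-81422395 and chr10:81435905-81436103, were each present in a single adult library. The distal Nfix regions, chr8:84808846-84810255 and chr8:84811134-84811759, lay upstream of its start and were present in the 3 adult libraries only, over 513 to 1314 bp.

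As a share of all bases covered in a library, the family split into a pair that was higher in adult cells and a pair that was lower. This measure, in bp per Mb of covered bases, divides by the total of the list but still depends on how many weaker peaks the list holds. Nfia had 62.8, 204 and 189 bp per Mb in the neonatal libraries and 502, 489 and 569 in the adult ones, a ratio of means of 3.42. Nfix had 521, 700 and 642 against 924, 920 and 796, a ratio of 1.42. Both were above in every adult library, as were 25.2% of 23433 genes. Nfib had 426, 238 and 424 against 185, 179 and 198, a ratio of 0.517. Nfic had 325, 304 and 326 against 202, 164 and 185, a ratio of 0.577. Both were below in every adult library, as was 14.3% of the genes, and the median ratio of genes with any neonatal peak was 0.588. The ratios of Nfib and Nfic thus lay near that median and those of Nfia and Nfix above it. Without neonatal replicate 2 the ratios were 4.12 for Nfia, 1.51 for Nfix, 0.441 for Nfib and 0.564 for Nfic. The exact permutation p was 0.1 for each (0.253 adjusted over 23433 genes with Benjamini-Hochberg).

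By gene name, the split held for promoter bases per Mb of promoter peaks, with ratios of 2.18 for Nfia, 1.87 for Nfix, 0.557 for Nfib and 0.847 for Nfic. By this measure 22.5% of 18548 genes were above and 14.9% below in every adult library, and the median ratio was 0.783, so Nfic lay slightly above it. Without neonatal replicate 2 the ratios were 2.48, 1.90, 0.487 and 0.877 in the same order. The Nfia ratio leaves out neonatal bases at its leading promoter region that carry the name E130114P18Rik. In neonatal replicates 1 and 3 that region held 838 and 1143 bp under any name, while all promoter peaks named Nfia held 0.187 and 0.442 kb. Whether the promoter share of Nfia rises with peaks of any name was not tested. Counted by position with 5000 bp on either side, Nfia remained separated, with means of 584 neonatal and 795 adult bp per Mb, while Nfib overlapped between the ages, with 390 and 299.6.

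With each list limited to its 7353 strongest peaks, the length of the shortest list, Nfix stood out. Its share was 609, 703 and 642 bp per Mb in the neonatal and 2044, 2115 and 1867 in the adult libraries, a ratio of 3.08. The share of Nfib was below in every adult library, at 370, 288 and 249 against 499, 490 and 424, a ratio of 0.642. By this measure 9.53% of 10859 genes were above and 17.4% below in every adult library, and the median ratio was 0.511, so Nfib lay above that median although its share was lower. Nfia, at 73.5, 320 and 189 against 232, 273 and 395, overlapped, with an exact permutation p of 0.4. Nfic overlapped too, at 380, 285 and 326 against 375, 197 and 109 (exact permutation p = 0.3). Without neonatal replicate 2 the ratios were 3.21 for Nfix, 0.655 for Nfib and 2.28 for Nfia, which was then separated, while Nfic (0.643) still overlapped. In kb the strongest peaks of all 4 members still covered more in every adult library, as for 34.4% of 10859 genes. For Nfix these were 1.55, 3.81 and 1.497 kb against 21.4, 24.9 and 31.1 kb.

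**Figure D4:**
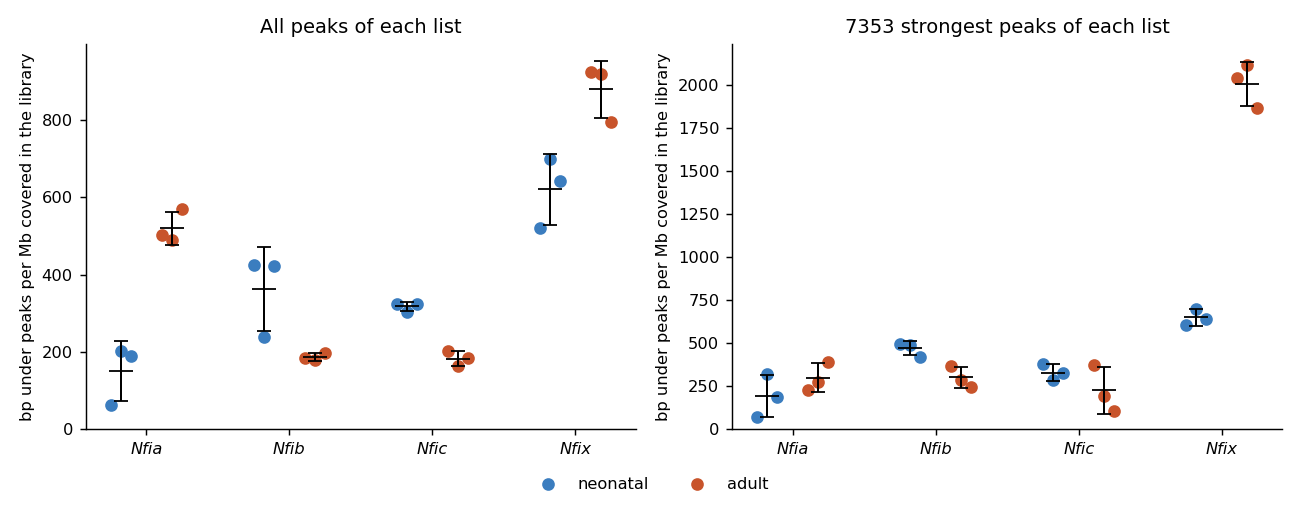
Points are libraries (blue neonatal, orange adult), with the mean and SD of each age in black, for the bp of each NFI gene under peaks per Mb covered in the library, from all peaks at left and from the 7353 strongest peaks of each list at right. Nfia and Nfix are higher and Nfib and Nfic lower in adult cells at left, while at right the groups of Nfia and of Nfic overlap and Nfix stands at 1867 to 2115 in adult cells.

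In the authors' deposited table of sites that differ between the ages, each 400 bp wide, 63 of 43888 sites overlapped most with a peak of a member, and all 63 were higher in adult cells, as were 99.4% of all its sites. The authors' deposited table names no direction; its positive sites overlapped a peak in 85.0 to 96.7% of cases in the adult libraries and in 10.3 to 27.8% in the neonatal ones, so positive was read as higher in adult. Of the 23433 genes, 65.0% had a site of the authors' deposited table that was higher in adult cells and 0.977% had one that was higher at the neonatal age. Within the authors' deposited table Nfia had 29 sites, Nfix 18, Nfib 12 and Nfic 4, with median log2 fold changes of 2.12, 2.24, 1.85 and 1.502. The median over the 63 sites in the authors' deposited table was 2.09, against 2.41 over all 43888. By class the medians in the authors' deposited table were 2.00 for the 23 promoter, 2.18 for the 36 intronic and 2.41 for the 4 distal sites of the family, against 1.86, 2.87 and 2.78 for all sites of these classes.

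The largest value of the family in the authors' deposited table was an intronic Nfix site at chr8:84761684-84762083, with a log2 fold change of 6.55 and an adjusted p of 4.73e-08, at percentile 99.3 of all sites. That site had a peak in the 3 adult libraries and in no neonatal one. In the authors' deposited table the largest Nfia promoter site, chr4:97907558-97907957, had 5.05 (adjusted p 2.12e-05), and the largest Nfia intronic site, chr4:98027162-98027561, had 4.74 (adjusted p 1.07e-05). The largest Nfib site in the authors' deposited table, intronic at chr4:82489804-82490203, had 4.11 (adjusted p 0.000215), and the largest Nfic site, a promoter site at chr10:81401825-81402224, had 2.15 (adjusted p 0.000573). For Nfix promoters the largest value in the authors' deposited table was 3.54 (chr8:84768978-84769377, adjusted p 1.28e-06), inside the 14.5 kb region, and for its distal sites 3.35 (chr8:84810637-84811036, adjusted p 0.000293). The smallest value of the family in the authors' deposited table was 1.18 in the leading Nfic promoter region (chr10:81430646-81431045, adjusted p 0.00948), at a site with a peak in all 6 libraries. In Nfia the smallest values of the authors' deposited table were 1.19 for an intronic site with adult peaks only (chr4:97936992-97937391, adjusted p 0.0297) and 1.23 for the promoter site in the leading region (chr4:97778177-97778576, adjusted p 0.00301), which had peaks in all 6. In Nfib the smallest values of the authors' deposited table were 1.24 for a promoter site (chr4:82495469-82495868, adjusted p 0.0381) and 1.30 for an intronic one (chr4:82493901-82494300, adjusted p 0.0397). In Nfix the smallest values of the authors' deposited table were higher, 1.69 for an intronic site with peaks in all 6 libraries (chr8:84793904-84794303), 1.87 for a promoter site (chr8:84777396-84777795) and 2.01 for a distal one (chr8:84809300-84809699).

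**Figure D5:**
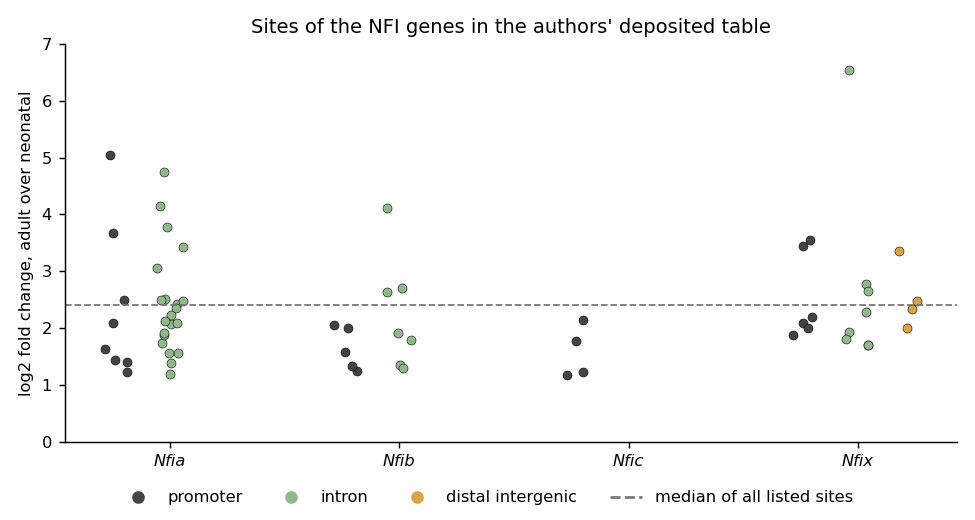
Each point is 1 site of the authors' deposited table that belongs to an NFI gene, with its log2 fold change (adult over neonatal, vertical axis) by gene and peak class; the dashed line is the median of all listed sites, 2.41. All 63 points are above 0, as are 99.4% of all listed sites, and the Nfix intronic site at 6.55 is the highest.

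A list of 20 genes known as partners or targets of NFI proteins, or as regulators in the same lineages, was set beside the family. Of these, 19 had a peak in some library, 13 of 20 had more covered bases in every adult library than in any neonatal one (60.0% of all genes did), and none had fewer. These counts were 17 and 0 without neonatal replicate 2, against 70.6% of all genes above. The median difference was 1.27 kb, against 0.661 kb over all genes. By share of the library, 5 of 20 were above and 6 below in every adult library, against 25.2% and 14.3% of all genes. The largest difference was at Zcchc24, an NFIA target in astrocytes, with 5.56, 14.6 and 1.77 kb in the neonatal and 31.4, 32.7 and 39.2 kb in the adult libraries. Zbtb20, a zinc finger repressor of gliogenic progenitors, followed with 0, 5.00 and 0.437 kb against 18.3, 17.5 and 27.8 kb. Notch1, the receptor that maintains progenitors, had 2.34, 10.6 and 1.40 kb against 17.5, 19.3 and 22.3 kb. By share of the library Zcchc24 and Notch1 went the other way, lower in every adult library by differences of means of -520 and -312 bp per Mb, while Zbtb20 was higher (246 bp per Mb). Sox9, the astrocyte-lineage partner of NFIA, had 0.246, 0.660 and 0 kb in the neonatal libraries and no peak in the adult ones. Gfap, the astrocyte filament gene, had 0, 1.13 and 0 kb against 0, 0 and 0.242 kb, and Gabra6 had no peak in any library. For both Sox9 and Gfap the ages overlapped.

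Patterns most like each member were sought over 18 values, the log2 of covered bp plus 100 in 3 classes and 6 libraries, among 14231 protein-coding genes. The nearest to Nfia by Euclidean distance were Stard13 (1.46), App (1.49) and Magi1 (1.52). For Nfib they were Epb41l1 (1.27), Stox2 (1.61) and Rin2 (1.93). For Nfic they were Evi5l (1.31), Ptch1 (1.80) and Zbtb7a (1.95). Nfix had no gene as near, with Nav1 (3.58), Sulf2 (3.83) and Epn2 (3.94). Its median distance over all these genes was also larger, 19.0 against 14.5 for Nfia, 11.3 for Nfib and 9.53 for Nfic. No member was among the 3 nearest genes of another: the closest pair was Nfib and Nfic, at a distance of 3.49, and the farthest Nfic and Nfix, at 13.1.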

How the data were processed

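The authors deposited 1 list of H4K8ac peaks per library for 3 neonatal and 3 adult OPC samples and 1 table of differential sites. Per the submitters' processing notes, Trim Galore, Bowtie2 2.4.5, SAMtools, deepTools, MACS2, DiffBind, ChIPseeker and build GRCm38 were used; their settings are not given in the sources used here. Per the labels, libraries were made from crosslinked chromatin with the KAPA Hyper Prep Kit. Per the file headers each peak has a fold enrichment (ratio), −log10 p and q, a score and an annotated gene. For each 400 bp site the deposited table gives the log2 fold change with its raw and adjusted p-value, and it lists only sites whose adjusted p is up to 0.05.

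Per library and gene, the bases of peaks with that gene name were summed with Python 3.11.15, pandas 2.3.3 and numpy 2.4.6, for all peaks and by class. Ages were compared by the exact two-sided permutation test over the 20 arrangements of 3 libraries against 3, adjusted by Benjamini-Hochberg over all genes; the script was tested on simulated data. Body coverage used RefSeq coordinates of GRCm38.p6, in which all 4 genes matched. Authors' sites took the gene of the peak that shares most bases. Peaks of the 6 libraries that overlap by 1 bp or more were merged into regions. Regions, genes and sites were named by rule: the most covered promoter region, 2 intronic and 2 distal regions in most libraries, the largest and smallest site per class, the 3 most similar genes, and the 3 largest and 3 smallest differences of the partner list. The members and lists were chosen with earlier results of these data known. Alternatives were a q limit of 0.005, the 7353 strongest peaks, peaks within 1000 bp merged, assignment by position, a promoter limit of 1000 bp, each library left out, and a replicate block. One gene of the oligodendrocyte marker list is not reported here.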

Additional observations from a re-analysis of the deposited data

How the results depend on the processing

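Values here are adult minus neonatal means, or counts of sites, and an overlap means that the libraries of the 2 ages overlapped. Of 400 repeats of 41 results, 365 kept the direction and the side of the call (for the authors' sites, a count within 1.5 times). Of these repeats, 216 left out 1 library and 36 used the replicate block, and 212 and 35 of them kept both. In those settings a separated result cannot lose its call. Both were kept in 19 of 30 repeats with the 7353 strongest peaks and in 23 of 32 with peaks within 1000 bp merged. A q limit of 0.005 moved 1 call, the promoter peaks of Nfic, to separation (4.67). The cause of the changes below was not tested.

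With the 7353 strongest peaks of each list the difference was reversed for promoter peaks of Nfib (-2), of Nfic (-0.333) and of the 4 genes summed (-1.33). The ages then overlapped for the share of Nfia (106 bp per Mb) and of Nfic (-103), for Nfia promoter peaks (0.333), intronic kb (1.19) and intronic peaks (0.667), and for Nfix intronic peaks (1.33). No distal peak was left in that setting (0 kb and 0 peaks).

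Merging peaks within 1000 bp, which gives a merged peak 1 class, reversed the intronic peak count of Nfix (-1). It gave overlap for the share of Nfix (228), promoter kb of Nfib (4.25) and Nfix (2.01), promoter peaks of Nfia (1.67) and of the 4 genes (6.33), and intronic kb (0.0990) and peaks (0.333) of Nfic, while promoter peaks of Nfix separated (2.67).

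By position, the share of Nfib overlapped (-90.4), and promoter kb of Nfia was reversed (-0.0900), since that setting takes only the outermost RefSeq start as promoter. A promoter limit of 1000 bp separated the promoter peaks of Nfic (3). Promoter bases per Mb of promoter peaks, the percentage of the gene body and the widest peak of any name in the leading promoter region, all added after seeing the data, kept the calls of all 4 members.

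Leaving out each library in turn gave differences of 20.2 to 27.0 kb for Nfia and 6.01 to 8.17 kb for Nfib. They were 5.89 to 8.13 kb for Nfic and 35.5 to 41.1 kb for Nfix. Groups that do not overlap stay so when a library is removed, so this setting could not lose a call. Promoter peak differences ranged from 1.33 to 3.33 for Nfib, 3.17 to 6.67 for Nfic and 4.17 to 7.17 for Nfix; they separated without neonatal replicate 2 for Nfic and Nfix, without adult replicate 1 for Nfib and without adult replicate 2 for Nfix.

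Same-numbered libraries did not deviate together more than others, with correlations of -0.0586, 0.0149 and 0.0812 over 3 numbers. Those of the other pairs ran from -0.104 to 0.0930. With so few pairs this cannot settle whether same-numbered libraries share more than a number. With the replicate block, an exact sign-flip test whose smallest p is 0.25, the promoter peaks of Nfib were higher in the adult library of every pair (2.33). No other call changed, and a result already separated could not lose its call in this setting.

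In the authors' deposited table an adjusted p limit of 0.005 left 17 Nfia, 5 Nfib and 40 sites in all. Taking sites with a midpoint within the gene or 5000 bp on either side gave 45 for Nfia, 19 for Nfib and 9 for Nfic. All of these were higher in adult cells. Read depth is unknown, which limits every comparison of list lengths.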
